A study of Homo sapiens with 24 samples.

Results

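The genes described here were 10 genes of retinoic acid metabolism and signaling, DHRS3, RDH10, ALDH1A1, ALDH1A3, CRABP2, RARA, RARB, RARG, CYP26A1 and CYP26B1, out of 58051 gene identifiers in the count files. They were taken by symbol. DHRS3 was chosen by its measured KO and WT levels, being higher in the KO than in the WT clones of all 3 lines, so its KO values and its clones are given as a description without a test. RNA-seq had been performed on HT29, HCT116 and SW480, which are established human colorectal carcinoma cell lines. WT clones had kept the CTNNB1 sequence of their own line. CTNNB1 encodes β-CATENIN, the transcriptional coactivator of WNT signaling. The authors list a gain-of-function CTNNB1 mutation for HCT116 and inactivating APC mutations for HT29 and SW480. By their account these mutations make WNT signaling active without growth factors. The comparison of KO with WT clones asks which genes depend on β-CATENIN in each line. In KO clones, CRISPR/Cas9 had removed 1 exon from both CTNNB1 alleles and shifted the reading frame. Each of the 6 groups of line and genotype held 2 clones, each grown from 1 sorted cell. Every clone had libraries A and B, taken here as the authors' 2 independent rounds of RNA-seq experiments. This gave 4 libraries per group and 24 libraries from 12 clones. HT29 had WT clones 11 and 40 and KO clones 28 and 38. HCT116 had WT clones 4 and 6 and KO clones 44 and 47, and SW480 had WT clones 4 and 5 and KO clones 17 and 21. All groups were grown in the same medium with fetal calf serum, and the labels name no retinoid treatment.

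Retinoic acid is made from retinol in a first, reversible step to retinaldehyde and a second, irreversible step to the acid. RDH10 drives the first step forward and DHRS3 runs it backward, ALDH1A enzymes perform the second step, and CYP26 enzymes break the acid down. CRABP2 delivers retinoic acid to its nuclear receptors, the RARs, which pair with RXRs on repeated short motifs in DNA, and in the intestinal epithelium this pathway is known for its part in differentiation. DHRS3, RARB and CYP26A1 are themselves textbook targets of retinoic acid, so the group holds both makers of the signal and readouts of it.

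The promoters of CYP26A1 and RARB are shown because they were the only members whose windows held a direct repeat of the core motif of the retinoic acid receptors, and that of DHRS3 is shown beside them because it had none. RefSeq sequence of GRCh38.p14 was searched, from 250 bases before to 50 bases after each start, for 2 core motifs in the same direction separated by 5 bases, on both strands. The core motif is NGNTCA, with A or G in the first and G or T in the third place. Such a repeat stood in 31 of 35116 windows of all genes, or 0.0883%, and in 2 of the 17 windows found for 9 of the members. CYP26A1 and RARB are known targets of retinoic acid, so the members' share is a description. RDH10 had no window, and sequence outside the windows was not searched. Printed are the 250 bases before the start, 5′ to 3′ on the strand of the gene, with the repeat in capitals. The CYP26A1 window is chr10:93073643-93073892 on the plus strand, where the repeat began 90 bases before the start and runs on the opposite strand, as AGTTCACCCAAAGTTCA. The RARB window is chr3:25428013-25428262 on the plus strand, with the repeat 53 bases before the start, and it was 1 of 4 RARB windows. The DHRS3 window is chr1:12618211-12618460 on the minus strand, 1 of 3 windows without a match.
CYP26A1: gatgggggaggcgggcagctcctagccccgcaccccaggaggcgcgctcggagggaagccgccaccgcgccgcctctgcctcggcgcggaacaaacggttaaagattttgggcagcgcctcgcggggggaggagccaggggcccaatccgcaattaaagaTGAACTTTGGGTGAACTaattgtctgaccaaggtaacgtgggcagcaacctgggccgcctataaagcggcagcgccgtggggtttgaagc
RARB: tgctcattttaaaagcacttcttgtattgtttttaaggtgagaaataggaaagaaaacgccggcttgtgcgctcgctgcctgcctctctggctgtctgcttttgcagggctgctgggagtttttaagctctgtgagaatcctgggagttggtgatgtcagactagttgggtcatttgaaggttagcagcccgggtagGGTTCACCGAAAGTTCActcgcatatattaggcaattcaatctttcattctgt
DHRS3: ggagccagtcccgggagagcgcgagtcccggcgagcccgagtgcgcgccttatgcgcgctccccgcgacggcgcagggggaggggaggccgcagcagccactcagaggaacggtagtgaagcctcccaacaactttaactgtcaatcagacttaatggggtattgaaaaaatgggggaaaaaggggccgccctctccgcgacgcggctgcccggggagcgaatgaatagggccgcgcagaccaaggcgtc
The site of the TCF/LEF factors that recruit β-CATENIN, spelled CTTTGAA or CTTTGAT on both strands, occurred in 6.86% of all windows and in 1 member window, another of RARB. A match is a stretch of letters and was not tested as a binding site.

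Libraries held 22297049 to 29068378 reads on genes. CTNNB1 was at 4.98% of its WT level in HT29, 1.83% in HCT116 and 2.18% in SW480 KO libraries, and its KO libraries lay below the WT libraries in each line. AXIN2, a standard readout of WNT signaling, ran from 15.1 to 158 normalized counts in HT29 KO against 590 to 779 in HT29 WT libraries, and the 2 libraries of HT29 KO clone 38 held the higher KO values. Library 47A of HCT116 KO stood apart, with at least 1 read at 35449 identifiers against 22620 to 23323 in the other 7 HCT116 libraries, and HT29 KO clone 38 had the rounds that differed most, with an SD of 0.926 log2 units over genes. Of the markers of colorectal epithelium, KRT8 (70711 to 412356 normalized counts) and KRT18 (23452 to 177254) were high in every library and made up most of a sum of 107947 to 639771. Other markers differed by line, with CDX2 at 1.98 to 19.9 in HT29, and VIL1 and CDH17 at or below 40.5 in HCT116 and SW480. In SW480, CDX2 was at 857 to 1333 in WT against 52.7 to 165 in KO, and EPCAM at 1117 to 2110 against 645 to 971. By contrast, the marker sums of leukocytes, endothelium and fibroblasts stayed at or below 439. In SW480 the leukocyte sum of 3 markers was 36.8 to 49.5 for WT libraries and 150.0 to 214 for KO libraries, with PTPRC at 0 in all WT and CD3E at 0 in all KO libraries. CD14 made up most of that sum, at 32.3 to 47.5 in WT and 150 to 211 in KO libraries. VWF, the 1 endothelial marker matched, was 9.65 to 27.4 for SW480 WT and 114 to 234 for SW480 KO, and the part of these genes in the SW480 results was not tested.

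DHRS3, the reductase that returns retinaldehyde to retinol, was higher in every KO library than in any WT library of the same line. Libraries separated in this way, in either direction, for 13.0% of all genes tested in HT29, 20.5% in HCT116 and 46.2% in SW480. In bulk RNA, fewer cells that express a gene and less RNA per cell cannot be told apart. It lies at chr1:12627939-12678216 on the minus strand of GRCh37, the build of the count files and of all gene positions below. Values are normalized counts, the gene count of a library divided by its size factor. In HT29 it was at 1058 and 1349 in rounds A and B of WT clone 11, 1595 and 1813 in WT clone 40, 3570 and 2937 in KO clone 28, and 2374 and 3232 in KO clone 38. The KO mean was thus 2.08 times the WT mean. In HCT116 the values were 276 and 134 in WT clone 4, 154 and 59 in WT clone 6, 1751 and 2002 in KO clone 44, and 1517 and 871 in KO clone 47, where the KO mean was 9.85 times the WT mean. In SW480 they were 219 and 197 in WT clone 4, 335 and 347 in WT clone 5, 1754 and 2028 in KO clone 17, and 2734 and 2577 in KO clone 21, or 8.28 times as high in KO. On the log2(normalized count + 1) scale the KO minus WT differences were 1.07, 3.43 and 3.07, and they ran over the alternatives from 0.82 to 1.33 in HT29, from 2.93 to 3.93 in HCT116 and from 2.71 to 3.42 in SW480. Without library 38B the HT29 difference was 1.03, and without library 47A the HCT116 difference was 3.41.

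DHRS3 was expressed in the WT clones of all 3 lines. WT means were 1454 ± 325 (SD, n = 4) in HT29, 275 ± 77.6 in SW480 and 156 ± 90.1 in HCT116, and KO means were 3028 ± 507, 2273 ± 460 and 1535 ± 485. In the order of the 6 means, the ranges of HT29 KO, SW480 KO, HCT116 KO and HT29 WT each overlapped that of the next group, HT29 WT lay above SW480 WT, and SW480 WT overlapped HCT116 WT. The WT libraries compared next were among those by which DHRS3 was chosen, so their p-values are a description. Between WT clones, DHRS3 was lower in HCT116 than in HT29 (-3.38 log2 units, adjusted p = 7.76e-09, limma over all genes) and lower in SW480 than in HT29 (-2.42, adjusted p = 1.21e-06). SW480 was above HCT116 by 0.97 (adjusted p = 0.0145), a difference that missed 0.05 without WT library 6B of HCT116 (0.57, adjusted p = 0.0938) or 5B of SW480 (0.84, adjusted p = 0.0506).

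**Figure D1:**
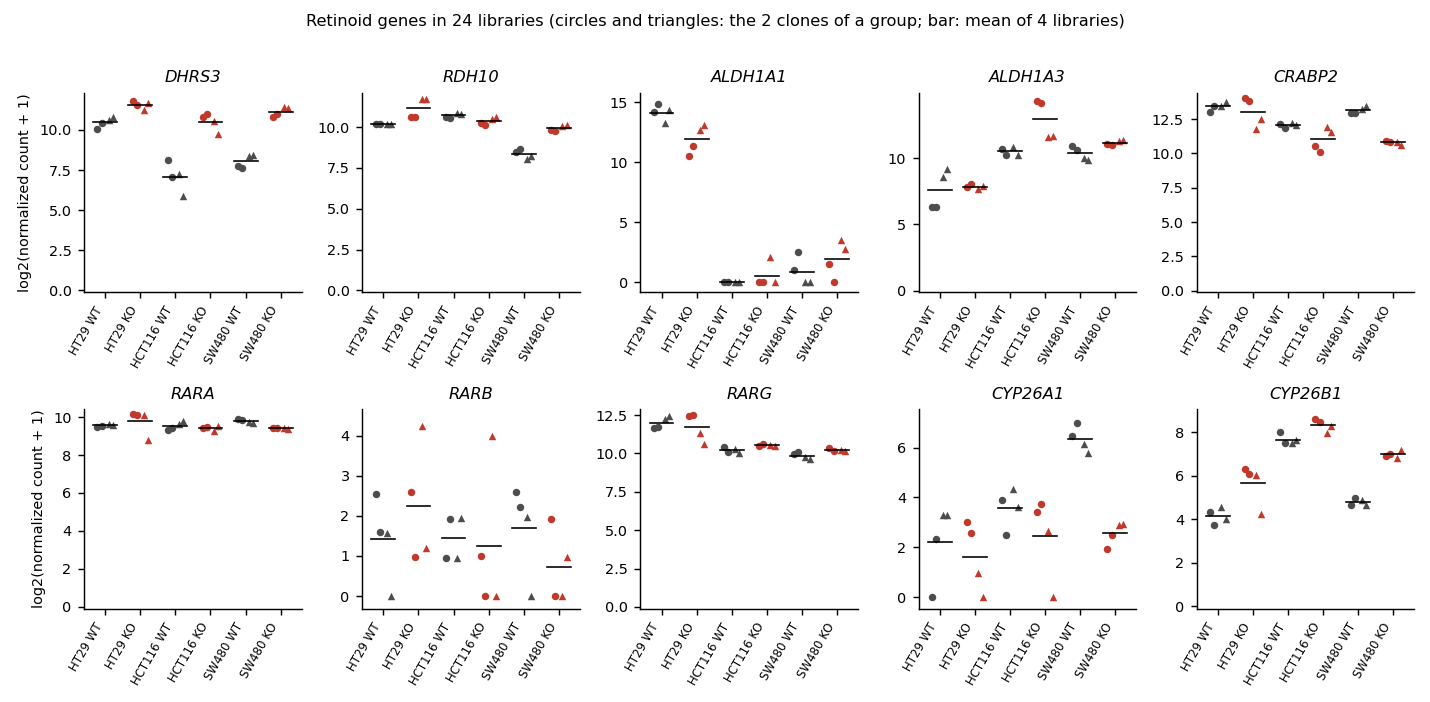
Normalized counts of the 10 genes in the 24 libraries as log2(normalized count + 1), 1 panel per gene, with the 6 groups on the x axis, WT in gray and KO in red, circles and triangles for the 2 clones of a group and a bar at the mean of its 4 libraries. All DHRS3 KO points lie above the WT points of their line, ALDH1A1 lies near 0 outside HT29, and RARB stays at or below 18.0 normalized counts in every library.

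Of the other 9 genes, 7 passed the filter of at least 10 normalized counts in at least 4 libraries in each line. RARB did not pass in any line, CYP26A1 did not pass in HT29, and ALDH1A1 did not pass in HCT116 and SW480. In HT29, limma placed 0 of the 7 under an adjusted p of 0.05, against 2.56% of all genes tested, while 3 had an unadjusted p under 0.05, DESeq2's Wald test called 3 and edgeR's quasi-likelihood test called 0. Called means an adjusted p under 0.05 and an absolute log2 difference over 1, which 2.3% of all genes passed in HT29. In HCT116, 1 of the 7 rose, against 8.05% of all genes, and 0 fell, against 5.93% (14.0% in either direction). There limma called 0 members, against 5.06% of all genes, 5 members had an unadjusted p under 0.05, and edgeR and DESeq2 called 1 each. In SW480, 4 rose, against 26.1% of all genes, and 3 fell, against 22.1% (48.1% in either direction), and 4 of these 7 were called, against 17.5%. CYP26A1, 1 of the 4 and of the 3 that fell, met the filter in SW480 through its WT libraries alone. It had to differ there, so its call is a description, as is its lack of overlap, counted next. KO and WT libraries did not overlap for 2 of 7 genes in HT29 (13.0% of all genes), for 2 of 7 in HCT116 (20.5%) and for 7 of 7 in SW480 (46.2%). The members' median difference was 0.24, -0.11 and 0.39 log2 units in the 3 lines, beside 0.031, -0.014 and -0.0042 over all genes tested.

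RDH10, which oxidizes retinol to retinaldehyde and so works opposite to DHRS3, rose in SW480 KO clones and passed the limma test in no other line. The gene lies on the plus strand of chromosome 8, from 74206837 to 74237516. In SW480 it was at 357 and 402 in WT clone 4, 268 and 303 in WT clone 5, 885 and 874 in KO clone 17, and 1071 and 1111 in KO clone 21. The groups did not overlap, and the KO mean was 2.96 times the WT mean (log2 difference 1.57, SE 0.14, adjusted p = 6.51e-06), with 1.37 to 1.78 over 22 alternatives that all passed. In HT29 the WT libraries were close together, at 1146, 1162, 1159 and 1168, while KO clone 28 was at 1580 and 1565 and KO clone 38 at 3304 and 3337. All 4 KO libraries were above WT there, but the clones differed from each other by 1.08 log2 units (adjusted p = 0.00357), and the KO to WT difference of 0.98 did not pass (SE 0.28, adjusted p = 0.121). It passed by DESeq2 (1.04, adjusted p = 0.0149) and without KO clone 28 (1.52, adjusted p = 0.0029).

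In HCT116 the RDH10 values pointed the other way. WT clone 4 was at 1570 and 1517, WT clone 6 at 1842 and 1800, KO clone 44 at 1223 and 1115, and KO clone 47 at 1412 and 1601. The KO and WT ranges overlapped through library 47B, and the difference of -0.34 did not pass (adjusted p = 0.108) except without that library (-0.43, adjusted p = 0.0402) or without KO clone 47 (-0.52, adjusted p = 0.0199). The difference of the KO effects passed between HCT116 and HT29 (-1.32, adjusted p = 0.00647) and between SW480 and HCT116 (1.91, adjusted p = 6.05e-05), and not between SW480 and HT29 (0.59, interval -0.011 to 1.2, adjusted p = 0.189). These differences reuse the same libraries of each line. RDH10 shares 5.21% of its exonic bases with an antisense gene, RDH10-AS1, and since the kit does not mark strand, reads there cannot be told apart. RDH10-AS1 was at or below 10.0 normalized counts in every library.

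ALDH1A1 and ALDH1A3 both oxidize retinaldehyde to retinoic acid, and the lines differed in which of them they expressed. ALDH1A1 (chr9:75515587-75695358, minus strand) was abundant in HT29, with 17978 and 28782 in WT clone 11, 9512 and 20232 in WT clone 40, 1450 and 2642 in KO clone 28, and 6661 and 8561 in KO clone 38. All KO libraries were below all WT libraries, and the KO mean was 25.2% of the WT mean. The clones of the KO group differed by 1.95 log2 units (adjusted p = 0.0211), and the KO to WT difference of -2.21 did not pass (SE 0.57, adjusted p = 0.0882), whereas it passed by DESeq2 (-2.02, adjusted p = 0.00448) and without KO clone 38 (-3.18, adjusted p = 0.011). In HCT116 ALDH1A1 was at 0 in every WT library and in 3 KO libraries and at 3.21 in KO 47A, and in SW480 it reached at most 4.59 in WT and 10.3 in KO libraries. Taking 3 reads per library as the floor, the HT29 WT mean was at least 6853-fold higher than HCT116 WT and the HT29 KO mean at least 1730-fold higher. Because ALDH1A1 held at most 11 reads in a SW480 library, a KO effect could not be measured there.

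ALDH1A3 (chr15:101417919-101456831, plus strand) was expressed in all 3 lines and rose in SW480. SW480 WT clone 4 was at 1967 and 1586, WT clone 5 at 1035 and 919, KO clone 17 at 2122 and 2061, and KO clone 21 at 2492 and 2642. KO libraries lay above WT libraries, 1.69 times as high on average (0.82, SE 0.22, adjusted p = 0.0125), yet WT clone 5 was also below WT clone 4 (-0.86, adjusted p = 3.49e-05). The rise missed 0.05 with the reads of each clone summed (adjusted p = 0.105), with no filter (0.051), without KO clone 17 (0.0531), without KO clone 21 (0.164), and without WT clone 5, where the difference was 0.39 (0.0523).

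The largest ALDH1A3 values of the study were in 1 clone of HCT116. WT clones 4 and 6 were at 1674 and 1222 and at 1884 and 1196, KO clone 47 at 3174 and 3344, and KO clone 44 at 20406 and 18632. All 4 KO libraries were above the WT libraries, and the KO mean was 7.62 times the WT mean, but clone 47 was below clone 44 (-2.58 log2 units, adjusted p = 7.84e-05). The KO to WT difference of 2.44 did not pass (SE 0.70, adjusted p = 0.0609). It passed by edgeR (2.94, adjusted p = 0.0313), by DESeq2 (adjusted p = 0.000348), without library 47A (2.89, adjusted p = 0.0415) or 47B (2.86, adjusted p = 0.0446), without clone 47 (3.73, adjusted p = 9.17e-07) and without clone 44 (1.15, adjusted p = 0.00557). In HT29 the WT clones differed most, at 79.7 and 78.1 in clone 11 against 389 and 574 in clone 40 (2.57, adjusted p = 0.000716), and the KO libraries between them, at 225, 265, 207 and 233, gave a difference of 0.26 (interval -1.18 to 1.70, adjusted p = 0.862), or of 1.54 without WT clone 40 (adjusted p = 0.0368). Antisense ALDH1A3-AS1 shares 32.1% of the exonic bases of ALDH1A3, which cannot be told apart without strand, and it ran from 39.4 to 49.2 in HCT116 WT, from 35.3 to 221 in HCT116 KO and from 33.8 to 145 in the other libraries.

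**Figure D2:**
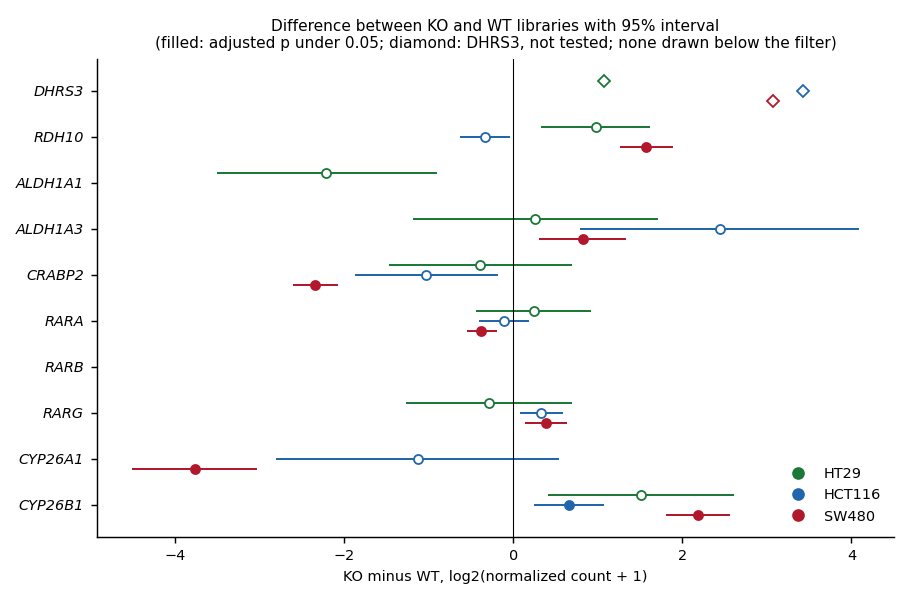
KO minus WT difference on the log2(normalized count + 1) scale for each gene and line, with lines for 95% intervals and filled circles for an adjusted p under 0.05. The 7 SW480 circles are filled, CYP26B1 is the 1 filled HCT116 circle, none is filled in HT29, and DHRS3 is shown by open diamonds without a test.

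CRABP2, the carrier that hands retinoic acid to its receptors, fell in SW480 KO clones. It lies at chr1:156669398-156675608 on the minus strand. In SW480 it was at 7790 and 7858 in WT clone 4, 9759 and 11065 in WT clone 5, 1902 and 1859 in KO clone 17, and 1813 and 1584 in KO clone 21. The KO libraries were far below the WT libraries, with a WT mean 5.1 times the KO mean (-2.34, SE 0.12, adjusted p = 1.25e-07), and the call held with the reads of each clone summed (adjusted p = 0.00158). In HCT116 the level differed by KO clone, with WT at 4461, 3706, 4680 and 4270, KO clone 44 at 1467 and 1094, and KO clone 47 at 3863 and 3088. Clone 47 overlapped the WT libraries and was above clone 44 by 1.45 (adjusted p = 0.000859). The HCT116 difference of -1.03 did not pass (adjusted p = 0.101), but it did without library 47A (-1.32, adjusted p = 0.0254), without clone 47 (-1.75, adjusted p = 3.22e-05) and by DESeq2 (-0.84, adjusted p = 0.0392).

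HT29 KO clones stood on either side of the CRABP2 level of the WT clones. WT clone 11 was at 8240 and 11456, WT clone 40 at 11103 and 13775, KO clone 28 at 16438 and 14671, and KO clone 38 at 3464 and 5824. Both KO 28 libraries were above and both KO 38 libraries below all WT libraries, and the clones differed by -1.79 (adjusted p = 0.00543). The group difference was -0.39 (adjusted p = 0.701), and -1.29 without KO clone 28 (adjusted p = 0.0448). The KO effect on CRABP2 differed between SW480 and HT29 by -1.94 (adjusted p = 0.0163), and between SW480 and HCT116 by -1.31 (adjusted p = 0.13), which passed only without HCT116 KO library 44B (-1.62, adjusted p = 0.0479).

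Of the 3 nuclear receptors of retinoic acid, RARA and RARG were expressed in every library and RARB was near the floor throughout. RARA (chr17:38465432-38513895, plus strand) fell in SW480, from 961, 905, 842 and 831 in WT to 699, 677, 690 and 656 in KO libraries. The libraries did not overlap, and the difference was -0.38 (SE 0.074, adjusted p = 0.0019), with an adjusted p of 0.0685 with the reads of each clone summed. In HCT116, RARA was at 640, 681, 809 and 875 in WT and 700, 708, 624 and 732 in KO libraries, and the ranges overlapped (-0.11, interval -0.39 to 0.17, adjusted p = 0.608). In HT29 it was at 706, 753, 807 and 754 in WT, 1129 and 1125 in KO clone 28, and 1097 and 451 in KO clone 38. Round B of clone 38 was the lowest of the 8 libraries, the other 3 KO libraries were the highest, and the difference was 0.24 with it (adjusted p = 0.71) and 0.57 without it (adjusted p = 0.0472). Antisense RARA-AS1 shares 11.7% of the exonic bases of RARA, and ran from 28.3 to 36.7 in SW480 WT and from 14.7 to 27.8 in SW480 KO libraries.

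RARG (chr12:53604351-53626764, minus strand) rose in SW480, with 1005, 1092, 854 and 780 in WT and 1308, 1162, 1209 and 1163 in KO libraries. The difference was small (0.39, SE 0.11, adjusted p = 0.0125), and it missed 0.05 with the reads of each clone summed (adjusted p = 0.14) or without WT clone 5 (0.21, adjusted p = 0.11). In HCT116, RARG was at 1367, 1096, 1264 and 1048 in WT and 1458, 1599, 1476 and 1445 in KO libraries. Here too the KO libraries were all higher, but the difference of 0.33 did not pass (adjusted p = 0.0722) except by DESeq2 (adjusted p = 0.0434) and without WT library 4A (0.40, adjusted p = 0.0401). In HT29, RARG was at 3178 and 3342 in WT clone 11, 4934 and 5542 in WT clone 40, 5618 and 5880 in KO clone 28, and 2541 and 1552 in KO clone 38. As with CRABP2, KO clone 28 was above and KO clone 38 below all WT libraries, the clones differed by -1.53 (adjusted p = 0.0049), and the group difference was -0.29 (adjusted p = 0.763).

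RARB (chr3:24729378-25639423, plus strand), whose promoter holds the repeat shown above, was at 18.0 in HT29 KO 38A, at 15.0 in HCT116 KO 47A and at or below 5.05 in the other libraries. Library 47A is the one with reads at the most identifiers. RARB did not reach the filter in any line, so a difference was not detectable at this depth.

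CYP26A1 and CYP26B1, which both inactivate retinoic acid, differed in opposite directions in SW480. CYP26A1 (chr10:94833232-94837642, plus strand), the other gene with the repeat, was at 86.9 and 125 in WT clone 4, 70.5 and 53.8 in WT clone 5, 2.82 and 4.59 in KO clone 17, and 6.54 and 6.72 in KO clone 21. The WT mean was 16.3 times the KO mean, and the libraries were far apart. The log2 difference was -3.77 (SE 0.33), with values from -4.15 to -1.81 over 21 alternatives, the smallest being that with the reads of each clone summed and 1 added on the CPM scale. The KO libraries were near the floor and below the filter value, so the pseudocount bears on the size. In HCT116, CYP26A1 was at 13.8, 4.64, 19.4 and 11.4 in WT and 9.83, 12.2, 5.35 and 0 in KO libraries (-1.13, adjusted p = 0.35), and in HT29 it was at or below 8.89. The SW480 effect minus that of HT29 was -3.17 (adjusted p = 0.0525) and minus that of HCT116 it was -2.64 (adjusted p = 0.129), so neither passed by limma with 1 added. With a pseudocount of 5 both passed (-2.77, adjusted p = 0.000869, and -2.47, adjusted p = 0.00283). The first also passed without HT29 library KO 38B (-3.72, adjusted p = 0.0201), WT 40A (-3.53, adjusted p = 0.0408) or WT 40B (-3.52, adjusted p = 0.0398), and the second without HCT116 KO 47B (-3.46, adjusted p = 0.0214) and by edgeR (-3.18, adjusted p = 0.0404). All HT29 libraries lay below the filter value, so a KO effect on CYP26A1 could not be measured there. The difference between SW480 and HT29 thus rests on the SW480 libraries. A long noncoding gene on the same strand, ENSG00000285846, shares 25.3% of the exonic bases of CYP26A1.

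CYP26B1 (chr2:72356367-72374991, minus strand) was higher in KO clones in SW480 and HCT116. In SW480 it rose from 24.3, 30.3, 29.0 and 24.5 in WT to 119, 128, 114 and 145 in KO libraries, 4.68 times as high (2.19, SE 0.16, adjusted p = 2.23e-06). In HCT116 it was at 261, 182, 180 and 200 in WT, 391 and 355 in KO clone 44, and 248 and 309 in KO clone 47. The ranges overlapped through KO library 47A, and the rise of 0.66 passed (SE 0.18, adjusted p = 0.0353), also without that library (0.78, adjusted p = 0.0211). It was lost in 10 of 22 alternatives, with the clone as a random effect (adjusted p = 0.109), with the reads of each clone summed (0.263), without either KO 44 library (0.101 and 0.095), without WT library 4B (0.0942), 6A (0.0988) or 6B (0.0814), and without KO clone 44 (0.241), WT clone 4 (0.052) or WT clone 6 (0.223). In HT29 the values were 19.2, 12.2, 22.7 and 15.0 in WT, 78.5 and 66.5 in KO clone 28, and 64.5 and 18.2 in KO clone 38. Round B of clone 38 lay within the WT range while the other 3 KO libraries were above it, and the difference of 1.51 did not pass (SE 0.48, adjusted p = 0.157) except without that library (1.98, adjusted p = 0.0144), without clone 38 (2.04, adjusted p = 0.0166) and by DESeq2 (1.69, adjusted p = 0.0177). The KO effect was larger in SW480 than in HCT116 by 1.53 (adjusted p = 0.0243), which missed 0.05 without HCT116 KO 47A (0.0528), HCT116 WT 4A (0.053) or SW480 KO 21B (0.0507).

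Members also differed between the clones of 1 group. DHRS3 was left out of these tests. Of 7 members tested, 2 were higher and 2 lower in HT29 KO clone 38 than in clone 28 (16.0% of all genes), namely RDH10 and ALDH1A1 against CRABP2 and RARG. These 4 calls rested on 2 libraries a clone, and only 1 member was called without library 28A and 2 without 28B. Without library 38A the count was 6, with RARA (-1.32, adjusted p = 0.000118) and CYP26B1 (-1.94, adjusted p = 0.00543) added. In HCT116 KO, 1 was higher and 1 lower in clone 47 than in clone 44 (7.16%), CRABP2 and ALDH1A3. With the round as a block, which HCT116 libraries of the same letter (A or B) shared, RDH10 was higher in KO clone 47 (0.36, adjusted p = 0.0218 against 0.10). RARA was higher in WT clone 6 (0.35, 0.046 against 0.219), and CYP26A1 was lower in KO clone 47 (-2.25, 0.0279 against 0.147). The CYP26A1 difference was -3.58 without library 47A and without the block. CYP26A1 held 10 and 13 reads in clone 44 and 5 and 0 in clone 47, so the pseudocount bears on these sizes. Without the block, 0 of 7 members passed between the HCT116 WT clones by limma (2.61% of all genes), where 1 had an unadjusted p under 0.05, and edgeR also gave 0.

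HT29 WT clones differed for 1 of 7 members, ALDH1A3 (9.02%). SW480 WT clones differed for 4 of 7 (8.88%), where CRABP2 was higher and RDH10, ALDH1A3 and RARG were lower in clone 5 than in clone 4. SW480 KO clones differed for 2 of 7 (28.0%), with RDH10 (0.31) and ALDH1A3 (0.30) both higher in clone 21. The KO calls of RDH10 and ALDH1A3 were lost without any 1 of the 4 libraries (adjusted p from 0.0618 to 0.166). Among the WT calls, RDH10 was lost without library 4B (0.135) or 5A (0.157), CRABP2 without 5B (0.0657), and RARG without 4B (0.12) or 5B (0.157). The clone differences in SW480 were smaller in size than the KO to WT difference of the same gene for RDH10, CRABP2 and RARG in both groups of clones, and for ALDH1A3 between the KO clones alone.

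Per kilobase of exon, CRABP2 was the most abundant member in the WT clones of every line, with mean normalized counts of 10299, 3955 and 8427 in HT29, HCT116 and SW480. In HT29 WT it was followed by ALDH1A1 at 6734, RARG at 829 and DHRS3 at 414, whereas in HCT116 WT the next were RDH10 at 316, ALDH1A3 at 280 and RARG at 233, and in SW480 WT ALDH1A3 at 258, RARA at 187 and RARG at 182. On this scale ALDH1A1 was above ALDH1A3 in HT29 WT, where ALDH1A3 was at 52.5, and ALDH1A3 was above ALDH1A1 in HCT116 and SW480 WT, where ALDH1A1 was at 0 and 0.493. In the KO clones DHRS3 reached 862, 437 and 647 per kilobase, and ALDH1A3 reached a mean of 2135 in HCT116, where clones 44 and 47 were far apart. The degrading enzymes were low, with CYP26B1 highest in HCT116 (42.5 in WT, 67.4 in KO) and CYP26A1 highest in SW480 WT at 28.4.

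WT clones of different lines differed for most members, as for most genes. Of 9 tested, 7 differed between HCT116 and HT29 (58.4% of all genes), 6 between SW480 and HT29 (60.3%) and 5 between SW480 and HCT116 (60.5%). ALDH1A1, counted in the pairs with HT29, met the filter only with the HT29 libraries. DHRS3, counted in every pair, was chosen on levels that include those of these WT libraries. CYP26B1 was higher in HCT116 than in HT29 by 3.52 log2 units (adjusted p = 1.98e-09) and lower in SW480 than in HCT116 (-2.87, adjusted p = 4.74e-08). CYP26A1 was higher in SW480 than in HT29 by 4.11 (adjusted p = 8.48e-05) and than in HCT116 by 2.75 (adjusted p = 0.00392). RARG was lower in HCT116 (-1.80) and in SW480 (-2.16) than in HT29, while RARA did not pass in any pair. RDH10 was lower in SW480 than in HT29 (-1.81) and HCT116 (-2.35), and its difference between HCT116 and HT29 of 0.53 (adjusted p = 0.0305) missed 0.05 without each of 6 of the 8 libraries (adjusted p from 0.0504 to 0.0751).

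**Figure D3:**
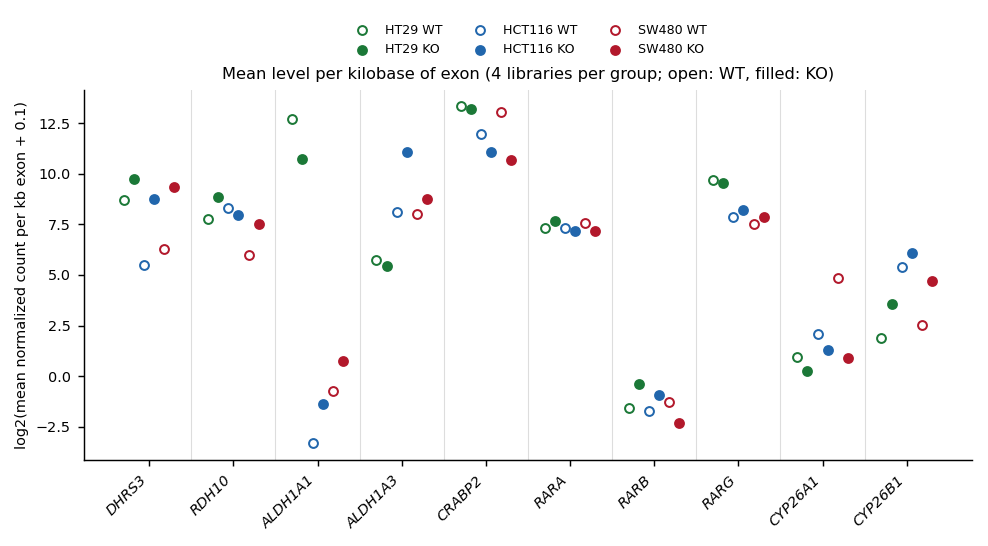
Mean normalized count per kilobase of exon as log2(value + 0.1) for each member, with open circles for WT and filled circles for KO means of 4 libraries, colored by line. CRABP2 is highest in the WT clones of all 3 lines, ALDH1A1 spans from 6734 per kilobase in HT29 WT to 0 in HCT116 WT, and RARB is at or near the bottom in each line.

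Between lines, 1 of 8 members tested had KO effects that differed for HCT116 against HT29 (7.25% of all genes), 2 for SW480 against HT29 (15.8%) and 2 for SW480 against HCT116 (13.2%). These were RDH10 in the first pair, CRABP2 and ALDH1A1 in the second, and RDH10 and CYP26B1 in the third. ALDH1A1 met the filter of this fit only with the HT29 libraries, so its value of 3.28 for SW480 minus HT29 rests on the HT29 libraries and shows no effect in SW480. Without HT29 KO library 38B, RARA also differed between HCT116 and HT29 (-0.68, adjusted p = 0.00475) and between SW480 and HT29 (-0.94, adjusted p = 6.3e-05), and CYP26B1 between HCT116 and HT29 (-1.33, adjusted p = 0.00656). DHRS3, by description, had KO effects that were 2.36 log2 units larger in HCT116 than in HT29, 2.0 larger in SW480 than in HT29, and -0.36 for SW480 minus HCT116.

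Other genes of the pathway came from lists of 63 genes. In HT29, 39 were tested and 1 rose while 0 fell, against 2.56% of all genes in either direction. In HCT116, 35 were tested and 7 rose while 6 fell, against 8.05% and 5.93% of all genes, and in SW480 40 were tested and 15 rose while 7 fell, against 26.1% and 22.1%. The same shares of all genes apply to the lists within the 63. The medians were 0.087, -0.018 and 0.22 log2 units, beside 0.031, -0.014 and -0.0042 over all genes. The list of genes known to respond to retinoic acid had 0 of 12 tested past the threshold in HT29 (median -0.18), 3 up and 3 down of 9 in HCT116, and 8 up and 2 down of 12 in SW480 (median 0.62). Of the carriers, FABP5 fell in HCT116 (-0.62) and rose in SW480 (0.24), where RBP7 fell (-2.18). Esterification and carotenoid genes had 2 of 5 up in HCT116, LRAT (1.09) and BCO2, and 1 up and 1 down of 5 in SW480, BCO1 (3.43) and SCARB1 (-0.20). BCO1 met the filter in SW480 through its KO libraries alone, at 12.1 to 17.4 against 0 to 0.979 in WT. It had to differ there, so its value is a description. BCO1 is among the 15 genes that rose in SW480. So is PLAAT4, 1 of the 8 genes up in the retinoic acid list, which also needed its KO libraries to meet the filter. The further retinol and retinaldehyde enzymes had 0 of 6 past the threshold in HCT116 and 2 up and 1 down of 6 in SW480, RDH5 (1.99), SDR16C5 (3.24) and RDH11 (-0.32). Receptor partners and cofactors had 2 up and 1 down of 11 in HCT116, RXRB, NRIP1 and PPARD, and 3 up and 1 down of 11 in SW480, where RXRA rose by 0.71 and PPARD fell by 2.0 on the log2 scale.

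The 1 other pathway gene that rose in HT29 was DHRS9, a retinol dehydrogenase, which went from 57.6, 22.3, 57.3 and 23.8 in WT to 2064, 1562, 1268 and 799 in KO libraries (5.17, SE 0.42, adjusted p = 0.000441, or 0.102 with the reads of each clone summed). Both KO clones were far above WT, and DHRS9 was at or below 20.3 in the other lines. BCO2, which cleaves carotenoids, rose in HCT116 from 48.6, 39.0, 38.8 and 52.4 to 147, 199, 289 and 321 (2.34, SE 0.26, adjusted p = 0.000165). The KO and WT libraries did not overlap for DHRS9 in HT29 or for BCO2 in HCT116.

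GPRC5A, a membrane receptor first known as a gene induced by retinoic acid, rose in both HCT116 and SW480. In HCT116 it went from 4707, 5448, 8001 and 7447 to 31202, 30093, 32933 and 38054 (2.40, SE 0.16, adjusted p = 3.83e-06), and in SW480 from 667, 560, 387 and 388 to 5033, 5378, 4697 and 4611 (3.34, SE 0.17, adjusted p = 1.8e-07). Both rises held with the reads of each clone summed. PLAAT4, also called a retinoic acid receptor responder, was at 6.06, 6.43, 10.6 and 10.8 in SW480 WT and at 569, 725, 1353 and 1089 in SW480 KO libraries (6.59, SE 0.29). Only 2 of these WT libraries reached 10. PLAAT4 thus met the filter in SW480 through its KO libraries, and its rise there is a description. NR2F1, an orphan nuclear receptor that retinoic acid can induce, fell in SW480 and HCT116. In SW480 it went from 2896, 3092, 1990 and 2343 to 208, 228, 305 and 303 (-3.30, SE 0.17, adjusted p = 1.8e-07), and in HCT116 from 2625, 2850, 1481 and 1295 to 462, 359, 472 and 670 (-2.02, SE 0.27, adjusted p = 0.00103). In HT29 all NR2F1 KO libraries, at 54.1 to 419, were below the WT libraries at 991 to 1468, but the difference did not pass (-2.86, SE 0.65, adjusted p = 0.0596). The authors, using DESeq2, report NR2F1 as downregulated in KO cells of every line and name it a known WNT/β-CATENIN target. Genes of this list therefore moved both ways in the same SW480 libraries.

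**Figure D4:**
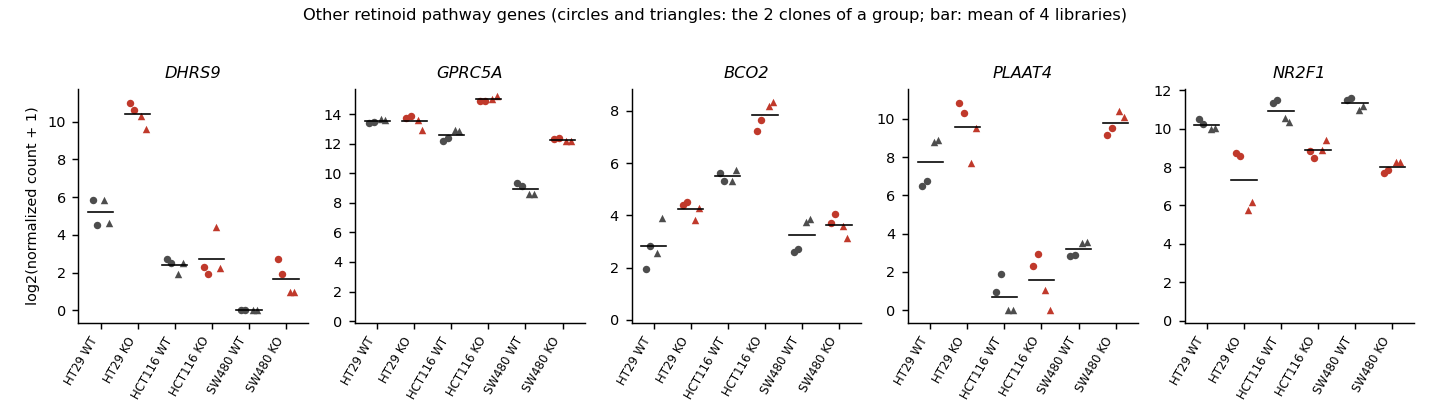
Normalized counts of the other named pathway genes in the 24 libraries as log2(normalized count + 1), by group, with circles and triangles for the 2 clones of a group and a bar at the mean. DHRS9 is high in the HT29 KO libraries, GPRC5A is higher in KO than in WT libraries of HCT116 and SW480, and PLAAT4 is at 569 to 1353 in SW480 KO against 6.06 to 10.8 in SW480 WT libraries.

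The genes most like DHRS3 over the 12 clone means, each centered within its line, were SNX14 (Pearson r = 0.98), C1QTNF6 (0.98), GALNT7 (0.974), TTLL1 (0.969) and USP35 (0.969) among 13028 genes. The points share 3 lines and the KO to WT step for which DHRS3 was chosen, so these values describe the clones and carry no test. Among the members, the same measure with DHRS3 ran from -0.755 for CRABP2 to 0.792 for CYP26B1.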

How the data were processed

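RNA-seq of 2 WT and 2 KO clones per line had been done in 2 rounds, which the authors describe as independent biological replicates. Per the labels, the authors made unstranded TruSeq libraries, aligned with STAR 2.7.5b to GRCh37, counted reads per gene with featureCounts 2.0.1 and used DESeq2 2.11.40.6. The values the authors deposited per library are signal, that is, gene counts over the size factor of each library, and whole reads were recovered for 100% of values (tolerance 0.001). They also deposited tables of DEGs per line with a mean signal, log2 fold changes and p-values, which were not used. Of the identifiers, 95.8% had a symbol.

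Genes with at least 10 in at least 4 libraries of a fit were tested with limma 3.58.1 (trend, robust) on log2(value + 1), adjusted by Benjamini-Hochberg over all of them. Rose and fell mean an adjusted p under 0.05, and called also an absolute log2 difference over 1. The p-values treat the 4 libraries of a group, from 2 clones, as replicates. KO was compared with WT within lines, WT clones and KO effects between lines, and clones within groups. The members, the pathway lists and the tests were chosen with earlier results of these data known. Named pathway genes were, per line, at most the 3 called genes of largest absolute difference with a mean of at least 100, and 1 of these is not reported here. Alternatives were edgeR 4.0.16 (TMM or RLE), DESeq2 1.42.0, reads summed per clone (on log2(CPM + 1)), a random effect for the clone, a block for the round, pseudocounts of 0.1 and 5, other filters, and each library or clone left out. Rounds paired the HCT116 libraries, with correlations of clone deviations over 0.1 in 6 of 6 pairs (0.182 to 0.374), but only 2 of 6 pairs in HT29 and 1 of 6 in SW480. The code was tested on simulated data. Of 13 cell type markers, 1 had no match. R 4.3.3, Python 3.11.15, numpy 2.4.6, pandas 2.3.3 and matplotlib 3.10.9 were used.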

Additional observations from a re-analysis of the deposited data

Results flagged for a closer look

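In 2 of 56 groups of 4 libraries, 1 library stood far from the other 3, and chance marks about 1 group in 20. Both were round B of HT29 KO clone 38, where RARA was at 451 and CYP26B1 at 18.2 normalized counts. The same library had reads at 20256 identifiers, the fewest of the 24 libraries, and its part in these values was not tested.

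KO effects differed between lines for 3 members. RDH10 had an effect 1.32 log2 units lower in HCT116 than in HT29 (a difference of -1.32) and 1.91 higher in SW480 than in HCT116. CRABP2 had a difference of -1.94 for SW480 minus HT29, and CYP26B1 of 1.53 for SW480 minus HCT116. ALDH1A1 passed the same test with 3.28 for SW480 minus HT29, but it met the filter only with the HT29 libraries and was near the floor in SW480, so this value shows no effect in SW480.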

How the results depend on the processing

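Each single-gene result was recomputed under each alternative, and of 1950 values 1797 kept their direction and their side of the threshold, 71 lost significance, 46 gained it and 36 changed sign, in 0 of which either value had passed. ALDH1A3 in HT29 (0.26) was at -0.30 by edgeR with TMM, -0.31 by DESeq2 and edgeR with RLE, -1.03 without WT clone 11, and -0.17 to 0.78 without single libraries. CRABP2 in HT29 (-0.39) was at 0.50 without KO clone 38 and -0.72 to 0.031 without single libraries. RARG there (-0.29) was at 0.48 without KO clone 38, 0.052 without WT clone 40 and -0.56 to 0.085 without single libraries, and RARA (0.24) was at -0.10 without KO clone 28. RARA in HCT116 (-0.11) was at 0.062 without WT clone 6. The ALDH1A1 difference of KO effects for SW480 minus HCT116 (0.55) was -1.29 by edgeR with TMM. The other sign changes came with single libraries left out, with ranges of -0.094 to 0.056 for RARA between HCT116 and HT29 WT, -0.35 to 0.012 for ALDH1A3 between SW480 and HCT116 WT, -1.08 to 0.29 for CYP26A1 KO effects of HCT116 minus HT29, and -0.026 to 0.14 for RARG KO effects of SW480 minus HCT116. Between clones the ranges were -0.051 to 0.57 for CYP26B1 in HT29 WT, -0.26 to 0.40 for ALDH1A3, -0.25 to 0.071 for RARG and -0.46 to 0.061 for CYP26B1 in HCT116 WT, -0.17 to 0.056 for RARA and -0.13 to 0.0026 for RARG in HCT116 KO, -0.18 to 0.13 for CYP26B1 in SW480 WT, and -0.069 to 0.0045 for RARA, -0.14 to 0.030 for RARG and -0.11 to 0.23 for CYP26B1 in SW480 KO. Called members in SW480 numbered 4, and 3 to 5 over the alternatives. In HT29, where the count was 0, it was 3 by DESeq2, 2 without KO clone 28, 2 without KO clone 38, 1 without WT clone 40 and from 0 to 1 with single libraries left out (1 without KO 38B). In HCT116, where it was 0, it was 1 by edgeR with TMM, DESeq2, edgeR with RLE, the strict filter and without KO clone 44, 2 without KO clone 47, and from 0 to 2 with single libraries left out (2 without 47A, 1 without 47B).

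Called genes among the other pathway genes of HT29 numbered 1, against 2 by edgeR with TMM or RLE, 7 by DESeq2, 0 with clones summed, 2 with the replicate block, 4 with no filter, 7 and 3 without KO clones 28 and 38, 2 without either WT clone, and 1 to 3 without single libraries (2 without KO 28A, 28B or 38A, 3 without 38B). In HCT116 they numbered 9, or 4 with clones summed. These counts were chosen after seeing the data. Differences of KO effects called 1 member for HCT116 minus HT29 (2 by edgeR, 2 with pseudocount 5, 1 to 2 without single libraries, 2 without HT29 KO 38B), 2 for SW480 minus HT29 (1 by edgeR, 3 with pseudocount 5, and 1 to 3 without single libraries, 3 without HT29 KO 38B, WT 40A or WT 40B), and 2 for SW480 minus HCT116 (1 to 3 without single libraries). HT29 KO clones differed for 4 members, or for 1 to 6 with single libraries left out. SW480 WT clones differed by over 1 log2 unit for 0 members, or for 0 to 1 (1 without 4B), and SW480 KO clones for 0, or 1 with no filter. With the round as a replicate block, HCT116 KO clones differed for 3 called members in place of 2. The block changed no call of a member between KO and WT, between WT lines or in the differences of KO effects. The causes of these shifts were not tested.

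Clones are the limit of these results. Each group rests on 2 of them. Low counts limit RARB, CYP26A1 outside SW480 WT and ALDH1A1 outside HT29, which held at most 21 reads in a library.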
